A study of Homo sapiens with 15 samples.

Results

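The RNA of 45 genes that act at set phases of the cell cycle was followed in HEK293T cells. The genes were named by symbol: 20 genes of S phase and of the entry into it, 22 genes of G2 phase and mitosis (G2/M), and the 3 D-type cyclins, which act in G1. Their symbols were matched to the Ensembl identifiers of the deposited tables through GENCODE v29, and all 45 were found among the 58735 genes listed. HEK293T, a line from human embryonic kidney, served in the study as the supporting cell grown beside tumour cells such as the leukaemia line U937. A CKO clone is a line of HEK293T grown out by limiting dilution after Cas9 and a guide RNA had been delivered by lentivirus to disrupt 1 gene. There were 5 groups. The control was Non-target, a clone with the same Cas9 vector and a guide without a target, and in the others the gene was RHBDD2 (RHBDD2-CKO), MLPH (MLPH-CKO), MAGI2 (MAGI2-CKO) or C9orf89 (C9orf89-CKO). Each group had 3 libraries, and their RNA came from 3 culture wells of 1 clone. The p-values therefore measure the spread between wells, and an effect of the disrupted gene cannot be told apart from other differences between clones. All 4 comparisons of a clone with Non-target share the 3 wells of Non-target, so they do not stand as separate evidence.

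Passage through the cell cycle is driven by cyclins and the kinases they activate. D-type cyclins pair with CDK4 and CDK6 in G1, E-type cyclins pair with CDK2 at the entry into S phase, and A-type and B-type cyclins carry the cell through G2 and mitosis. Genes for DNA replication are switched on by E2F factors late in G1, while genes of mitosis are switched on in G2 through promoters that carry CHR elements and CCAAT boxes. In bulk RNA, fewer cells in a phase and less RNA per cell cannot be told apart.

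All 45 genes were expressed. The values were read as FPKM, fragments per kilobase of exon scaled to the depth of the library, a scale on which levels can be compared between genes. This comparison is less sure for CCNE2 and NUSAP1, since 37.1% and 62.2% of their exon bases are shared with other genes. Over all 15 libraries, the mean level of the S genes ran from 3.18 FPKM (CCNE2) to 229 FPKM (PCNA), with a median of 53.9 FPKM. That of the G2/M genes ran from 4.42 FPKM (NUSAP1) to 131 FPKM (CKS2), with a median of 41.7 FPKM, and the D cyclins lay between 3.95 and 11.7 FPKM. The libraries held 15517856 to 19489918 fragments on genes, with a median of 17666063. The lowest count of any member in any library was 99 fragments, for CCND2. Differences were tested with limma on log2(FPKM + 0.1) over the 16175 genes that reached 0.5 FPKM in 3 or more libraries. All 45 members passed this filter, and an adjusted p under 0.05 (Benjamini-Hochberg over all tested genes) was taken as the threshold.

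The disrupted genes and the identity of the cells were looked at first. RHBDD2 was at 27.4, 38.1 and 34.9 FPKM in the Non-target wells and at 11.2, 13.5 and 12.4 FPKM in the RHBDD2-CKO wells. C9orf89 was at 5.70, 7.71 and 6.27 FPKM in Non-target and at 4.34, 4.27 and 4.34 FPKM in C9orf89-CKO. MAGI2 was at 0.119, 0.102 and 0.123 FPKM in Non-target and at 0.0899, 0.0523 and 0.0618 FPKM in MAGI2-CKO, and MLPH was listed at 0 in all 6 libraries of Non-target and MLPH-CKO. The RNA level does not check the disruption of a gene, since a small insertion or deletion can leave RNA in place. Of 6 markers of HEK293 cells, all passed the filter, with a summed level of 59.0 to 163 FPKM and VIM as the most abundant at 40.1 to 87.9 FPKM. NEFM, one of them, was near 0 in MAGI2-CKO (0 to 0.0706 FPKM, against 21.4 to 38.4 FPKM in Non-target), and in RHBDD2-CKO it was at 0.957 to 1.89 FPKM. NEFL (0.903 to 1.14 FPKM, against 16.8 to 20.5 FPKM) and LHX1 (0.395 to 0.484 FPKM, against 0.922 to 1.10 FPKM) were also lower in RHBDD2-CKO, so that 3 of the 6 markers were lower and 0 higher in that clone (limma), where 16.7% of all tested genes were lower and 17.4% higher. In MLPH-CKO 5 of the 6 were higher and 0 lower (14.5% and 15.5% of all genes), in MAGI2-CKO 3 and 1 (17.0% and 19.1%) and in C9orf89-CKO 2 and 0 (12.9% and 13.1%). The 7 markers of leukocytes summed to 0.384 to 1.19 FPKM and the 8 markers of fibroblasts to 3.11 to 5.88 FPKM. Their most abundant genes were ITGB2 (0.138 to 0.792 FPKM) and COL1A1 (2.24 to 5.42 FPKM).

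The promoters of the 2 phases differed in their letters. RefSeq promoters (GRCh38.p14) were matched for 36 of the 45 genes. The other 9 were MCM4, MCM5, CCNE2, AURKA, TPX2, UBE2C, BIRC5, CCND1 and CCND2. The 250 bases upstream of each start were searched on both strands for the CHR (TTTGAA), for the CCAAT box (CCAAT) and for 3 forms of the E2F site (TTTCGCGC, TTTGGCGC and TTTCCCGC). The CHR was in 10 of 18 G2/M promoters, in 0 of 17 S promoters and in 13.6% of all 27305 promoters. An E2F form was in 8 of 17 S promoters, in 1 of 18 G2/M promoters and in 2.38% of all. The CCAAT box was in 16 of 18 G2/M promoters, in 9 of 17 S promoters and in 33.0% of all, and a CHR together with a CCAAT box was in 9 of 18 G2/M promoters and in 4.85% of all. A match is a description of the letters and not a site shown to be used.

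The next 4 G2/M promoters are shown as examples that carry a CHR and a CCAAT box near the start, as others of the list do, such as CKS2 and MKI67. In MLPH-CKO the RNA of CCNB2, KIF11 and HMMR was higher, and in MAGI2-CKO that of CCNB2 and KIF11. In C9orf89-CKO that of KIF11 was higher, and in RHBDD2-CKO that of HMMR was lower, while PLK1 passed the threshold in no clone. Whether these elements bear on the changes was not tested. Each stretch is the 130 bases before the RefSeq start, read 5′ to 3′ on the strand of the gene, with CHR and CCAAT letters in capitals (both strands). In HMMR, 2 CCAAT matches on opposite strands overlap. They lie at chr15:59105016-59105145 (CCNB2, plus strand), chr10:92593000-92593129 (KIF11, plus), chr5:163460502-163460631 (HMMR, plus) and chr16:23678759-23678888 (PLK1, plus).
CCNB2: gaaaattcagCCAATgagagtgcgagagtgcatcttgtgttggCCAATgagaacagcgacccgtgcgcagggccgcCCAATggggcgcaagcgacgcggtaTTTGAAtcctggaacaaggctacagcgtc
KIF11: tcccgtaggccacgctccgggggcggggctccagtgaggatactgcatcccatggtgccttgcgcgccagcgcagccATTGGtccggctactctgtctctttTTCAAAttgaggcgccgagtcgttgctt
HMMR: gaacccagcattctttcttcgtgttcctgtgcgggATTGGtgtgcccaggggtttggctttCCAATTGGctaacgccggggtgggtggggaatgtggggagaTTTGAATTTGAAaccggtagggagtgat
PLK1: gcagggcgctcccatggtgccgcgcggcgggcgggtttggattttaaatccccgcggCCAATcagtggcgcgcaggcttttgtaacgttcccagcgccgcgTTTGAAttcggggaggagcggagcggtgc
The CHR nearest the start lay 29 bases upstream of it in CCNB2 and PLK1, 28 in KIF11 and 22 in HMMR.

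For S phase, 3 promoters are shown in the same way with the E2F letters in capitals, since they belong to a helicase subunit that fell in 2 clones, to the factor E2F1 itself and to the sliding clamp PCNA. They lie at chr7:100101398-100101527 (MCM7, minus strand), chr20:33686386-33686515 (E2F1, minus) and chr20:5126623-5126752 (PCNA, minus).
MCM7: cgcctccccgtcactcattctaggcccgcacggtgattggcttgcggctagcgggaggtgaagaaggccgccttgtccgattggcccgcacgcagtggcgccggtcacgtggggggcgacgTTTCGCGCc
E2F1: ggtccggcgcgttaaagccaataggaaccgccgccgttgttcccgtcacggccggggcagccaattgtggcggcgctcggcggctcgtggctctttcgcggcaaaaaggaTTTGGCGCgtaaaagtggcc
PCNA: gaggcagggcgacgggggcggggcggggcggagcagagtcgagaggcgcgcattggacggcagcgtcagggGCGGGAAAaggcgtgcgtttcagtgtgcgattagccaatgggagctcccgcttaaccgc
The E2F letters began 9, 20 and 59 bases upstream of the start in these promoters, and in PCNA they stand on the opposite strand.

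The D cyclins gave the largest changes among the 45 genes, and they did so in RHBDD2-CKO. CCND1, which couples growth signals to CDK4 and CDK6, lies on chromosome 11 from 69641087 to 69654474 (GRCh38, GENCODE v29). It was at 10.8, 10.3 and 11.4 FPKM in the Non-target wells and at 3.01, 3.63 and 3.11 FPKM in the RHBDD2-CKO wells. No well of one group reached the other, and the change was −1.72 on the log2 scale (SE 0.07, limma, Benjamini-Hochberg adjusted p = 5.70e-09), a level 3.28-fold lower. CCND2, a second D-type cyclin on chromosome 12 from 4273772 to 4305350, was at 4.97, 4.85 and 4.19 FPKM in Non-target and at 0.992, 0.924 and 0.850 FPKM in RHBDD2-CKO. The fall was by 2.22 in log2 units (SE 0.09, adjusted p = 4.26e-09, limma), to a level 4.66-fold lower. In the other 3 clones its wells stood between 4.10 and 5.63 FPKM, overlapping Non-target, and the changes ranged from −0.10 to 0.14. CCND3, the third D-type cyclin, was at 10.2, 13.3 and 13.1 FPKM in Non-target and at 10.6, 11.3 and 11.1 FPKM in RHBDD2-CKO. Its change of −0.14 did not pass the threshold (adjusted p = 0.397, limma), and its wells overlapped those of Non-target in every clone. Without the 5 libraries numbered 1 it was lower there (−0.24, adjusted p = 0.00831).

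CCND1 was also lower in the other clones, by smaller steps. The wells were at 6.34, 6.47 and 6.94 FPKM in MLPH-CKO, at 8.57, 8.78 and 8.95 FPKM in MAGI2-CKO and at 9.47, 9.74 and 8.78 FPKM in C9orf89-CKO. Every well of these clones lay below every Non-target well. The log2 changes were −0.71 in MLPH-CKO (adjusted p = 1.62e-05, limma), −0.31 in MAGI2-CKO (adjusted p = 0.00613) and −0.22 in C9orf89-CKO (adjusted p = 0.0467). The last of these passed the threshold in only 8 of 27 other settings (adjusted p = 0.0222 to 0.408), while the falls in the other 3 clones passed in all 27. Of all tested genes, 16.7% were lower in RHBDD2-CKO, 15.5% in MLPH-CKO, 19.1% in MAGI2-CKO and 13.1% in C9orf89-CKO. Ordered by its mean, CCND1 was highest in Non-target, next in C9orf89-CKO, then MAGI2-CKO, then MLPH-CKO, and lowest in RHBDD2-CKO. The neighbours C9orf89-CKO and MAGI2-CKO did not differ past the threshold (0.09, adjusted p = 0.451, limma), whereas MAGI2-CKO lay above MLPH-CKO (0.41, adjusted p = 0.00169) and MLPH-CKO above RHBDD2-CKO (1.00, adjusted p = 6.29e-07). Of the exon bases of CCND1, 10.3% are shared with the gene LTO1, and of those of CCND2, 13.8% with CCND2-AS1 and AC008012.1. How reads on shared bases were counted is not given in the sources used here.

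**Figure D1:**
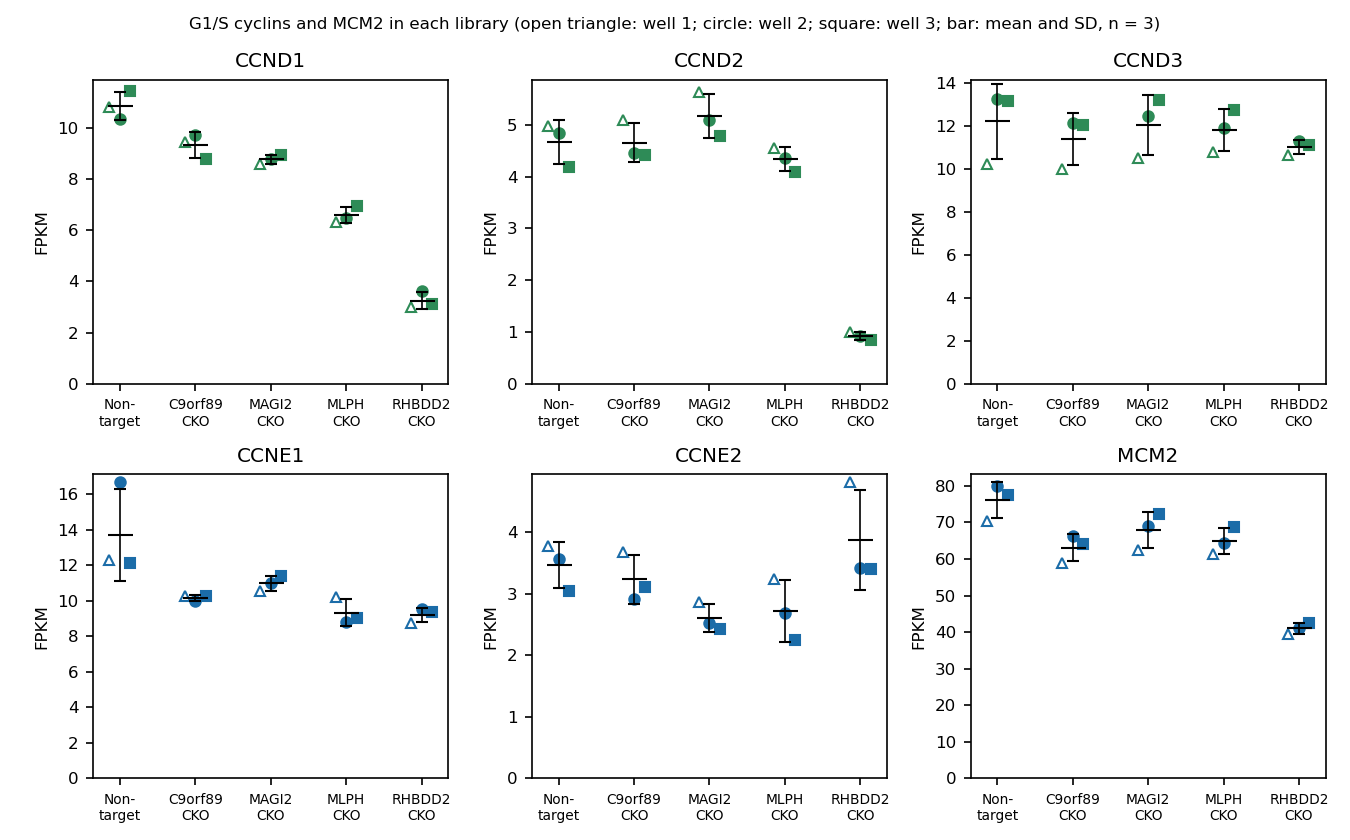
FPKM of CCND1, CCND2, CCND3, CCNE1, CCNE2 and MCM2 in each well (vertical axis, FPKM from 0) of the 5 groups (horizontal axis); open triangles are wells numbered 1, circles 2 and squares 3, and the bar gives the mean ± SD (n = 3). CCND1 and CCND2 are lowest in RHBDD2-CKO, where the 3 wells lie at 3.01 to 3.63 and 0.850 to 0.992 FPKM, and CCND3 overlaps between groups.

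Among the 20 S genes, more fell than rose in MLPH-CKO, MAGI2-CKO and C9orf89-CKO. In RHBDD2-CKO the shares were near those over all genes, and nothing particular to the list is read from them. In C9orf89-CKO, 0 were higher and 5 lower (25.0%), where 12.9% of all tested genes were higher and 13.1% lower. In MAGI2-CKO 1 was higher and 6 were lower (30%), against 17.0% higher and 19.1% lower over all genes. In MLPH-CKO 1 was higher and 8 were lower (40%), against 14.5% and 15.5%. In RHBDD2-CKO 2 were higher and 3 lower (15%), against 17.4% and 16.7%. With the GC curve taken off each library, an alternative described with the well numbers, 4 were higher and 3 lower there. Over all genes 19% were higher and 17.7% lower in that fit. The median log2 change of the 20 genes was −0.14, −0.06, −0.18 and −0.02 in that order of clones, while the median over all tested genes lay between −0.0063 and 0.00038. The count of 5 in C9orf89-CKO was not steady. It was 2 without Non-target replicate 2, without Non-target replicate 3 or without C9orf89-CKO replicate 1. It was 3 without MAGI2-CKO replicate 2 or RHBDD2-CKO replicate 3, and 1 after quantile normalization. Over all 16175 genes, 4210 passed there in the main fit, and 3345, 3288, 3600, 3976, 4031 and 4129 in these settings in that order. The 7 genes past the threshold in MAGI2-CKO became 4 without its replicate 2 or its replicate 3, when the calls over all genes went from 5835 to 4750 and 4976. The 9 in MLPH-CKO became 5 without Non-target replicate 2 and 4 without MLPH-CKO replicate 2. Over all genes the calls in MLPH-CKO went from 4865 to 4140 and 3875. Without the 5 libraries numbered 1, 10 S genes passed in RHBDD2-CKO (4 higher and 6 lower), 9 in MAGI2-CKO (1 and 8), 11 in MLPH-CKO (1 and 10) and 7 in C9orf89-CKO (0 and 7). The shares over all genes were then also larger, at 19.8% higher and 22.2% lower in RHBDD2-CKO, 16.6% and 20.3% in MLPH-CKO, 18.7% and 21.7% in MAGI2-CKO and 15.2% and 17.2% in C9orf89-CKO.

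CCNE1, the E-type cyclin that starts S phase with CDK2, was lower in all 4 clones. It lies on chromosome 19 from 29811898 to 29824308. Its Non-target wells were at 12.3, 16.7 and 12.2 FPKM. Those of RHBDD2-CKO were at 8.77, 9.54 and 9.35, of MLPH-CKO at 10.2, 8.78 and 9.05, of MAGI2-CKO at 10.6, 11.0 and 11.4 and of C9orf89-CKO at 10.3, 9.99 and 10.3 FPKM. All 12 CKO wells lay below the 3 Non-target wells, and Non-target well 2 stood above the other wells of its group, which enlarges all 4 falls. The log2 changes were −0.55, −0.54, −0.30 and −0.41 in the same order (adjusted p = 0.00130, 0.00176, 0.0362 and 0.0105, limma). The falls in MLPH-CKO and RHBDD2-CKO passed in all 27 other settings, that in C9orf89-CKO in 25 and that in MAGI2-CKO in 18. No pair of clones differed in CCNE1 past the threshold. CCNE2, its paralogue, ran from 2.25 to 4.81 FPKM and did not pass the threshold in any clone, although its MAGI2-CKO wells (2.42 to 2.87 FPKM) all lay below those of Non-target (3.05 to 3.77 FPKM). Without the libraries numbered 1 it was lower in MAGI2-CKO (−0.40, adjusted p = 0.0241, limma) and in MLPH-CKO (−0.41, adjusted p = 0.0238). Of its exon bases 37.1% are shared with other genes.

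MCM2, a subunit of the replicative MCM helicase on chromosome 3 from 127598223 to 127622436, had the largest change of the S genes. It was at 70.5, 80.1 and 77.6 FPKM in Non-target and at 39.4, 41.2 and 42.5 FPKM in RHBDD2-CKO. The wells did not overlap, and the log2 change was −0.89 (SE 0.07, adjusted p = 2.26e-06, limma). It was lower by smaller steps in C9orf89-CKO (−0.27, adjusted p = 0.0173) and MLPH-CKO (−0.23, adjusted p = 0.0328), calls that were lost in 6 and 8 of 27 other settings. In MAGI2-CKO its change of −0.16 did not pass (adjusted p = 0.106, limma), but it did without the libraries numbered 1 (−0.16, adjusted p = 0.0292) and with the GC curve taken off (−0.23, adjusted p = 0.00181). None of the other helicase subunits, MCM3 to MCM7, passed the threshold in RHBDD2-CKO. There MCM5, for example, was at 45.6, 53.8 and 51.9 FPKM against 38.4, 45.5 and 46.1 FPKM in Non-target. Without the libraries numbered 1, MCM5 (0.20, adjusted p = 0.0340, limma) and MCM3 (0.13, adjusted p = 0.0453) were higher in RHBDD2-CKO and MCM7 was lower (−0.14, adjusted p = 0.0271), and MCM5 and MCM3 also passed with the GC curve taken off. The 100 tested genes nearest to MCM2 had a median change of −0.42 in RHBDD2-CKO, and MCM2 minus this median was still lower (−0.43, adjusted p = 0.00153, limma). Of its exon bases 23.6% are shared with TPRA1 and AC023593.1.

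In MAGI2-CKO, 2 S genes of chromosome 7 fell most. RFC2, a subunit of the clamp loader that places PCNA on DNA, lies from 74231499 to 74254458. It was at 44.3, 50.5 and 48.5 FPKM in Non-target and at 30.1, 29.9 and 28.8 FPKM in MAGI2-CKO. MCM7, from 100092728 to 100101940, was at 164, 174 and 171 FPKM in Non-target and at 116, 112 and 116 FPKM in MAGI2-CKO. Both sets of wells were apart, and the log2 changes were −0.69 for RFC2 (adjusted p = 4.88e-05, limma) and −0.56 for MCM7 (adjusted p = 1.95e-05). The medians of their 100 neighbours in this clone were −0.49 and −0.50. With the neighbours taken off, the changes were −0.16 (adjusted p = 0.251) and −0.09 (adjusted p = 0.380), and neither passed. In C9orf89-CKO, where the neighbours of MCM7 had a median of −0.02, MCM7 was at 140, 144 and 141 FPKM and also lower (−0.26, adjusted p = 0.00869, limma).

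CDC6, which loads the helicase at origins, fell in MAGI2-CKO and MLPH-CKO, against the direction of its neighbours. It was at 29.7, 28.2 and 26.4 FPKM in Non-target, 25.3, 22.8 and 22.2 FPKM in MAGI2-CKO and 25.9, 21.8 and 22.3 FPKM in MLPH-CKO. The wells were apart by small margins, and the changes were −0.26 and −0.27 (adjusted p = 0.0210 and 0.0215, limma), calls that were lost in 5 and 6 of 27 other settings. Its 100 neighbours on chromosome 17 had medians of 0.26 and 0.27 in these clones, and with these taken off the changes were −0.55 and −0.54. In C9orf89-CKO it was at 23.6, 24.3 and 24.1 FPKM, also below all Non-target wells, and the change of −0.23 just missed the threshold (adjusted p = 0.0527, limma, neighbour median 0.16). It passed there in 10 of 27 other settings, among them without the libraries numbered 1 (−0.18, adjusted p = 0.0183) and with the neighbours taken off (−0.40, adjusted p = 0.00519). In MLPH-CKO, UNG, which removes uracil from DNA, fell by 0.32 (adjusted p = 0.00274) and POLA1, the catalytic subunit of the polymerase that starts DNA strands, by 0.29 (adjusted p = 0.00598), with medians of their neighbours of −0.02 and 0.00. CHAF1B, a subunit of the chromatin assembly factor on chromosome 21, was the S gene that rose most: by 0.35 in RHBDD2-CKO, 0.21 in MLPH-CKO and 0.20 in MAGI2-CKO (adjusted p = 0.00125, 0.0280 and 0.0256, limma). Its neighbours had medians of 0.17, 0.08 and 0.07, and with them taken off it passed in none of these clones (0.17, 0.11 and 0.13). CDC45, a partner of the helicase, rose by 0.26 in RHBDD2-CKO, where its neighbours rose by 0.32.

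PCNA, CDT1 and E2F1 did not pass the threshold in any clone. PCNA was at 205, 250 and 242 FPKM in Non-target and between 189 and 250 FPKM in the clones. CDT1, which licenses origins with CDC6, was at 48.4, 66.8 and 59.9 FPKM in Non-target and between 43.1 and 71.6 FPKM elsewhere, and E2F1 was at 38.1, 48.2 and 41.8 FPKM and between 33.7 and 48.1 FPKM. In each of them the well numbered 1 was the lowest in Non-target. The E2F1 wells of C9orf89-CKO, at 34.0, 33.7 and 36.8 FPKM, all lay below those of Non-target (−0.29, adjusted p = 0.0776, limma). E2F1 passed there in 5 of 27 other settings, among them without the libraries numbered 1 (−0.35, adjusted p = 0.0133) and with the GC curve taken off (−0.25, adjusted p = 0.00479), and in MLPH-CKO with the GC curve taken off (−0.24, adjusted p = 0.00590). Without the libraries numbered 1, PCNA was lower in RHBDD2-CKO (−0.14, adjusted p = 0.0223).

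**Figure D2:**
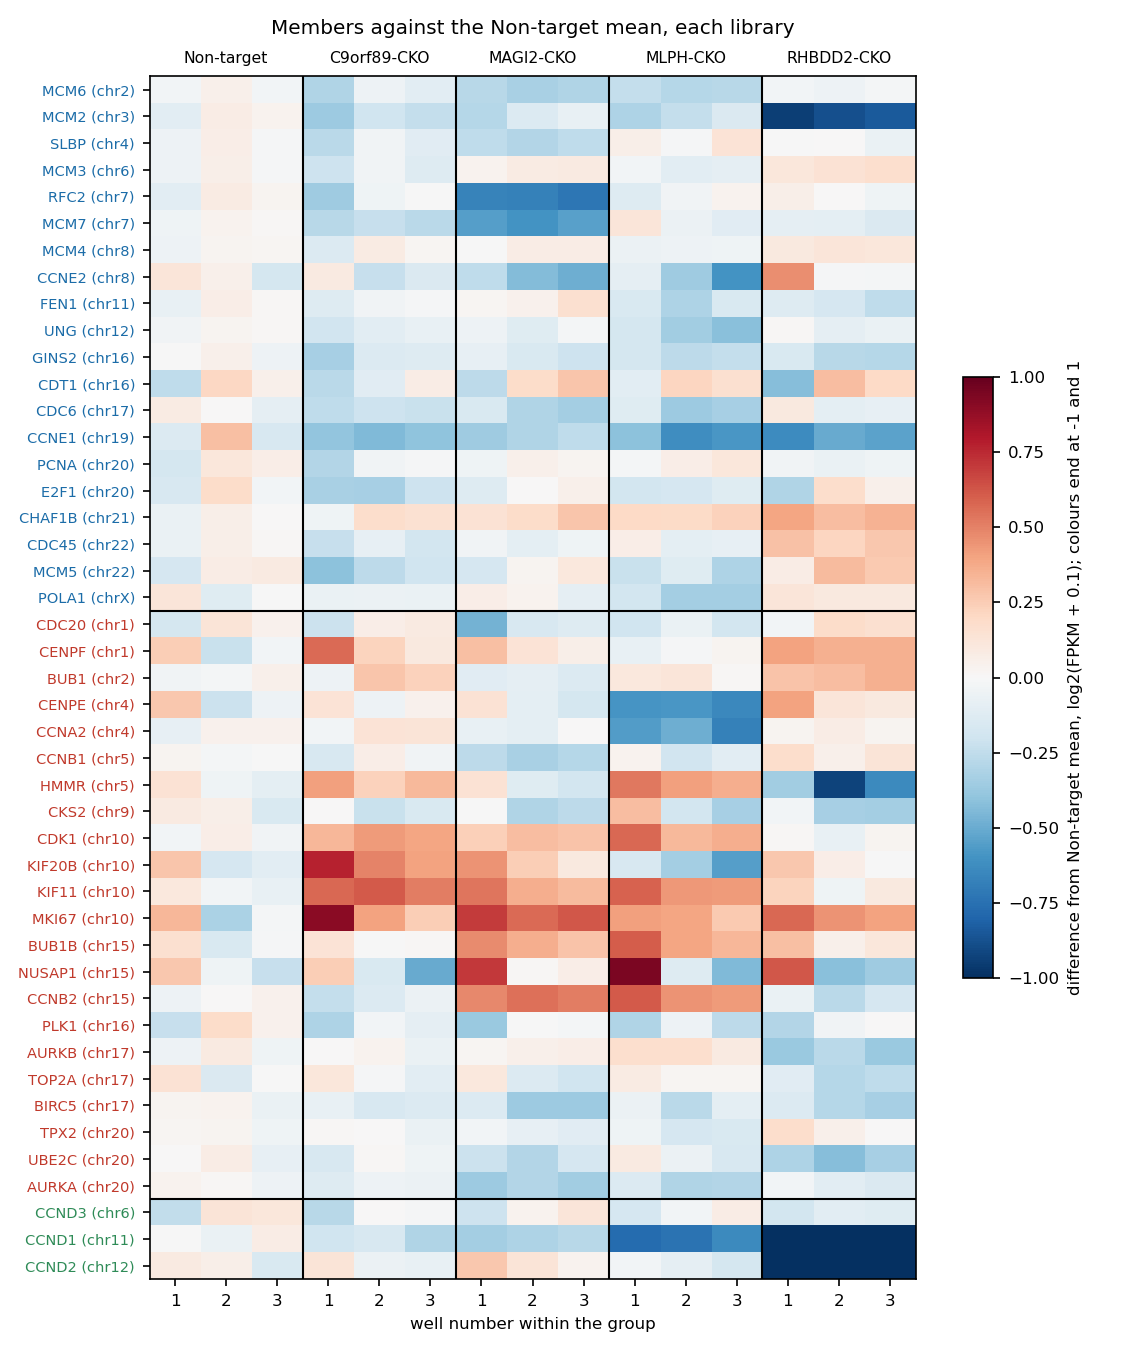
Difference of each member (rows, with chromosome; blue names are S genes, red G2/M genes, green D cyclins) in each library (columns, wells 1 to 3 of each group) from the Non-target mean, in log2(FPKM + 0.1), with colours ending at −1 and 1. CCND1, CCND2 and MCM2 are darkest blue in RHBDD2-CKO, and G2/M genes of chromosome 10 and chromosome 15 are red in blocks of clones.

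The 22 G2/M genes moved both ways in 3 of the clones. In C9orf89-CKO 4 were higher (18.2%) and 0 lower. In MAGI2-CKO 5 were higher (22.7%) and 4 lower (18.2%). In MLPH-CKO 5 were higher (22.7%) and 3 lower (13.6%), and in RHBDD2-CKO 3 were higher (13.6%) and 4 lower (18.2%). These shares stand beside those over all tested genes given above, and nothing particular to the list is read from them. The median log2 change of the 22 genes was −0.0040, −0.06, −0.03 and 0.02 in that order. The 4 genes in C9orf89-CKO became 2 without Non-target replicate 2 or replicate 3. The 7 in RHBDD2-CKO became 4 without Non-target replicate 2, RHBDD2-CKO replicate 2 or RHBDD2-CKO replicate 3. Calls over all genes went from 4210 to 3345 and 3288 in C9orf89-CKO, and from 5511 to 4271, 4641 and 4365 in RHBDD2-CKO. Without the 5 libraries numbered 1, when the shares over all genes were the larger ones given for the S genes, 11 G2/M genes passed in RHBDD2-CKO (4 higher and 7 lower), 13 in MAGI2-CKO (7 and 6), 13 in MLPH-CKO (6 and 7) and 7 in C9orf89-CKO (7 and 0).

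In the fit with all 15 libraries, the 4 G2/M genes that rose in C9orf89-CKO lie on chromosome 10: CDK1, the mitotic kinase, the spindle motor KIF11, the motor KIF20B and MKI67, which coats mitotic chromosomes. KIF11, from 92593286 to 92655395, was at 35.8, 32.7 and 31.7 FPKM in Non-target. It was at 49.7, 51.1 and 47.7 in C9orf89-CKO, 48.3, 43.0 and 41.7 in MAGI2-CKO, 50.3, 45.1 and 44.96 in MLPH-CKO and 39.0, 32.4 and 35.6 FPKM in RHBDD2-CKO. The first 3 clones stood above every Non-target well, and RHBDD2-CKO overlapped them. The log2 changes in those 3 clones were 0.57, 0.41 and 0.48 (adjusted p = 0.000262, 0.00178 and 0.000698, limma), beside neighbour medians of 0.30, 0.32 and 0.36. With the neighbours taken off, KIF11 passed in C9orf89-CKO (0.24, adjusted p = 0.0370) and not in MAGI2-CKO (0.09) or MLPH-CKO (0.10). G2/M genes of other chromosomes passed in C9orf89-CKO in other settings. HMMR, on chromosome 5, was there at 24.7, 21.9 and 23.4 FPKM, above all Non-target wells (0.32, adjusted p = 0.0867, neighbour median −0.08), and was higher in 7 of 27 other settings, among them with the neighbours taken off (0.37, adjusted p = 0.0277, limma). Without the libraries numbered 1, HMMR (0.35), CENPF (0.28, chromosome 1) and BUB1 (0.24, chromosome 2) were higher in C9orf89-CKO, and CENPF (0.22) was in MAGI2-CKO.

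CDK1 rose in the same 3 clones by 0.38, 0.28 and 0.42 on the log2 scale (adjusted p = 0.000923, 0.00507 and 0.000402, limma), beside neighbour medians of 0.27, 0.27 and 0.26. It passed in none of these clones with the neighbours taken off (0.15, 0.03 and 0.15). MKI67 was at 18.2, 11.6 and 14.2 FPKM in Non-target. It was at 21.5, 19.7 and 19.1 in RHBDD2-CKO, 23.5, 21.4 and 22.2 in MAGI2-CKO, 27.0, 19.0 and 17.1 in C9orf89-CKO and 19.2, 19.0 and 17.3 FPKM in MLPH-CKO. Its wells overlapped those of Non-target in C9orf89-CKO and MLPH-CKO and not in the other 2 clones. It passed in C9orf89-CKO (0.52, adjusted p = 0.0349), MAGI2-CKO (0.63, adjusted p = 0.00926) and RHBDD2-CKO (0.48, adjusted p = 0.0405), calls that were lost in 7, 1 and 12 of 27 other settings. Its neighbours had medians of 0.30, 0.37 and −0.03 in these clones, and with them taken off it passed in none (0.18, 0.24 and 0.46, adjusted p = 0.510, 0.331 and 0.0578). KIF20B, from 89701610 to 89774939 and so close to KIF11, rose in C9orf89-CKO (0.55, adjusted p = 0.0129), beside a neighbour median of 0.30, and with the neighbours taken off it did not pass (0.26, adjusted p = 0.242). In MLPH-CKO it was at 8.85, 7.82 and 6.74 FPKM against 12.03, 8.83 and 9.19 FPKM in Non-target, a change of −0.35 that did not pass there, beside a neighbour median of 0.35. It was lower in MLPH-CKO in 4 of 27 other settings, among them without the libraries numbered 1 (−0.31, adjusted p = 0.0240, limma) and with the neighbours taken off (−0.71, adjusted p = 0.00371).

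On chromosome 15, CCNB2 and BUB1B rose in MAGI2-CKO and MLPH-CKO. CCNB2, a B-type cyclin, lies from 59105078 to 59125045. It was at 26.4, 27.4 and 28.2 FPKM in Non-target, 38.1, 40.1 and 39.1 FPKM in MAGI2-CKO and 41.8, 37.4 and 36.8 FPKM in MLPH-CKO. In C9orf89-CKO and RHBDD2-CKO it lay between 22.6 and 26.2 FPKM, below every Non-target well. There its changes of −0.14 and −0.17 did not pass (adjusted p = 0.15 and 0.0802, limma). The rises of 0.52 and 0.50 in MAGI2-CKO and MLPH-CKO (adjusted p = 8.92e-05 and 0.000178, limma) stood beside neighbour medians of 0.47 and 0.53. BUB1B, a kinase of the spindle checkpoint, rose by 0.37 and 0.44 (adjusted p = 0.00971 and 0.00432), beside 0.52 and 0.56. CCNB1, the other B-type cyclin, lies on chromosome 5 and moved the other way in MAGI2-CKO: it was at 96.4, 93.3 and 94.3 FPKM in Non-target and at 78.9, 75.4 and 77.5 FPKM there (−0.29, adjusted p = 0.00581, limma). AURKA, a spindle kinase on chromosome 20, was lower in MAGI2-CKO (−0.34, adjusted p = 0.000527) and MLPH-CKO (−0.24, adjusted p = 0.00634), in all 27 other settings.

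In MLPH-CKO, 2 genes of chromosome 4 fell. CCNA2, the A-type cyclin of S and G2, was at 60.2, 65.4 and 65.4 FPKM in Non-target and at 43.3, 45.2 and 39.9 FPKM in MLPH-CKO. CENPE, a motor at the kinetochore, was at 14.7, 10.5 and 11.7 FPKM in Non-target and at 8.06, 8.12 and 7.77 FPKM in MLPH-CKO. The wells were apart for both genes. The changes of −0.57 (adjusted p = 2.79e-05, limma) and −0.60 (adjusted p = 0.00255) stood beside neighbour medians of −0.39 and −0.41, and neither passed with the neighbours taken off (−0.14 and −0.12).

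In RHBDD2-CKO the neighbours of the 7 G2/M genes that passed had medians between −0.14 and 0.01. HMMR, which binds hyaluronan and spindle microtubules, was at 20.6, 18.1 and 17.4 FPKM in Non-target and at 14.6, 9.78 and 11.96 FPKM in RHBDD2-CKO. It fell by 0.64 (SE 0.13, adjusted p = 0.00220, limma), with a neighbour median of −0.06. In MLPH-CKO it was at 26.9, 24.8 and 24.0 FPKM and rose by 0.43 (adjusted p = 0.0224), with a neighbour median of −0.19, and the 2 clones differed by 1.07 (adjusted p = 3.56e-05). UBE2C, the ubiquitin-conjugating enzyme of the anaphase-promoting complex, fell by 0.35 (adjusted p = 0.00307) from 113, 118 and 106 FPKM to 90.9, 83.5 and 89.3 FPKM. AURKB, the kinase of the chromosomal passenger complex, fell by 0.34 (adjusted p = 0.000544), and BIRC5, another part of that complex, by 0.25 (adjusted p = 0.0277). The BIRC5 call was lost with the neighbours taken off (−0.29, adjusted p = 0.0910) and with the GC curve taken off (−0.21, adjusted p = 0.0509). CENPF, a kinetochore protein, rose by 0.37 (adjusted p = 0.0349, limma), a call that was lost in 7 of 27 other settings. BUB1, a checkpoint kinase, rose by 0.32 (adjusted p = 0.00567, limma). PLK1, the mitotic kinase whose promoter is shown above, did not pass the threshold in any clone, nor did CDC20, TOP2A or CKS2. Some of them did without the libraries numbered 1, which differed from the others (limma on 10 libraries): PLK1 was then lower in MLPH-CKO (−0.27, adjusted p = 0.0238) and CDC20 in MAGI2-CKO (−0.23, adjusted p = 0.00831) and MLPH-CKO (−0.21, adjusted p = 0.0136). TOP2A was then lower in RHBDD2-CKO (−0.19, adjusted p = 0.0273), and CKS2 in RHBDD2-CKO (−0.29, adjusted p = 0.0172) and MAGI2-CKO (−0.23, adjusted p = 0.0409). With the GC curve taken off, TOP2A was lower in RHBDD2-CKO and CDC20 in MAGI2-CKO. With the neighbours taken off, TOP2A was lower in MAGI2-CKO.

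Over all members, the change of a gene and that of its 100 nearest tested genes were set side by side in each clone. Pearson's r across the 22 G2/M genes was 0.740 in MAGI2-CKO, 0.679 in C9orf89-CKO and 0.666 in MLPH-CKO, and it was 0.310 in RHBDD2-CKO. Across the 20 S genes it was 0.685, 0.297, 0.0933 and 0.742 in the same order. These are descriptions across genes, which are not independent replicates, since members on the same chromosome share neighbours and all values share the Non-target wells. With each gene taken relative to its neighbours, an alternative chosen after seeing the data, the members past the threshold numbered 4 S and 6 G2/M genes in RHBDD2-CKO, 4 and 3 in MLPH-CKO, 2 and 5 in MAGI2-CKO, and 4 and 3 in C9orf89-CKO. In that fit 15.6%, 10.6%, 12.4% and 10.3% of all genes were higher and 15.1%, 11.5%, 15.5% and 10.9% lower. CCNB2 and BUB1B, which rose in MAGI2-CKO and MLPH-CKO, passed as higher in no clone with the neighbours taken off. CCNB2 passed as lower in that fit in C9orf89-CKO and RHBDD2-CKO. In RHBDD2-CKO it was also lower with the GC curve taken off and without the libraries numbered 1. Copy number was not measured here, and the cause of changes shared with neighbours was not tested.

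Comparisons between the clones leave out the shared Non-target wells. Of all tested genes, 22.5% differed between C9orf89-CKO and MAGI2-CKO, 14.2% between C9orf89-CKO and MLPH-CKO, 29.3% between C9orf89-CKO and RHBDD2-CKO, 21.2% between MAGI2-CKO and MLPH-CKO, 41.6% between MAGI2-CKO and RHBDD2-CKO and 37.0% between MLPH-CKO and RHBDD2-CKO. Of the 20 S genes, 3, 2, 5, 6, 9 and 10 differed in these pairs, and of the 22 G2/M genes 5, 5, 6, 4, 9 and 15. The pair of MLPH-CKO and RHBDD2-CKO had the most: 1 S gene, MCM2, was higher in MLPH-CKO and 9 were lower, while 8 G2/M genes were higher and 7 lower. CCND1 and CCND2 were lower in RHBDD2-CKO than in each of the other 3 clones. The differences were 1.0 to 1.5 for CCND1 and 2.12 to 2.37 for CCND2 on the log2 scale, with adjusted p-values of at most 6.29e-07 (limma).

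Further genes of the cycle were counted in lists drawn up by function, with earlier results of these data known. Of 37 other genes of replication, 8 were higher and 4 lower in RHBDD2-CKO (21.6% and 10.8%, against 17.4% and 16.7% of all tested genes). In MLPH-CKO 7 and 10 were (18.9% and 27.0%, against 14.5% and 15.5%), in MAGI2-CKO 5 and 10 (13.5% and 27.0%, against 17.0% and 19.1%) and in C9orf89-CKO 4 and 6 (10.8% and 16.2%, against 12.9% and 13.1%). RFC5, another clamp loader subunit, was lower in all 4 clones: it was at 36.0 to 37.4 FPKM in Non-target and at 20.04 to 30.8 FPKM elsewhere, with changes from −0.69 to −0.44 beside neighbour medians from −0.37 to −0.27. ORC6, part of the origin recognition complex, was lower in all 4 as well, from −0.25 to −0.45. Of 42 other genes of mitosis, 41 were tested, all but PRC1. Beside the same shares over all genes, 9 were higher and 6 lower in RHBDD2-CKO (22.0% and 14.6%), 2 and 9 in MLPH-CKO (4.88% and 22.0%), 2 and 15 in MAGI2-CKO (4.88% and 36.6%, against 17.0% and 19.1% of all) and 3 and 3 in C9orf89-CKO (7.32% each). SGO2, which guards cohesion at centromeres, was at 7.84 to 8.31 FPKM in Non-target and fell by 0.86 in C9orf89-CKO, by 0.78 in MAGI2-CKO and by 0.41 in MLPH-CKO, with neighbour medians between −0.07 and 0.01. It rose by 0.37 in RHBDD2-CKO (adjusted p = 0.00725, limma).

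Of 38 other genes that control the cycle, 12 were higher and 5 lower in RHBDD2-CKO (31.6% and 13.2%, against 17.4% and 16.7% of all tested genes). In MLPH-CKO 4 and 9 were (10.5% and 23.7%, against 14.5% and 15.5%), in MAGI2-CKO 7 and 9 (18.4% and 23.7%, against 17.0% and 19.1%) and in C9orf89-CKO 5 and 4 (13.2% and 10.5%, against 12.9% and 13.1%). CDKN1A, the p21 inhibitor of cyclin-dependent kinases, was lower in all 4 clones. It was at 16.7 to 18.6 FPKM in Non-target, against 7.52 to 9.04 in MAGI2-CKO, 8.003 to 9.17 in C9orf89-CKO, 9.57 to 11.1 in RHBDD2-CKO and 12.7 to 14.3 FPKM in MLPH-CKO. The wells of each clone were apart from Non-target, with changes of −1.06, −1.01, −0.76 and −0.35 in that order (adjusted p = 1.35e-06, 3.41e-06, 2.77e-05 and 0.00816, limma) and neighbour medians between −0.07 and 0.06. E2F2, an activating E2F factor, was higher in all 4, by 0.68 to 1.08, from 5.51 to 6.50 FPKM in Non-target to 8.61 to 13.9 FPKM in the clones. Its neighbours on chromosome 1 were also higher, with medians of 0.46 to 0.53. CDKN1C, the p57 inhibitor, was at 2.94 to 3.99 FPKM in Non-target and fell by 0.96 in MAGI2-CKO and 1.13 in MLPH-CKO, to 1.33 to 2.02 FPKM, with wells apart, while the changes in the other 2 clones were −0.04 and 0.04.

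Each group has wells with the numbers 1 to 3, and the labels do not say what a number shares. Wells numbered 1 differed from wells 2 and 3 in members of both phases. With group and number in 1 model, 2 S genes were higher in wells numbered 1 and 5 lower (25.0%), and 11 G2/M genes were higher (50%) and 2 lower, where 12.5% of all tested genes were higher and 15.3% lower. The G2/M median was 0.10 and the S median −0.04 on the log2 scale. The 7 S genes became 4 without MAGI2-CKO replicate 1, when the calls over all genes went from 4488 to 3494. NUSAP1, which bundles spindle microtubules, differed most: it was at 4.96, 4.89, 6.75, 7.94 and 6.36 FPKM in the 5 wells numbered 1, and between 2.86 and 4.29 FPKM in the other 10 wells. The difference was 0.77 (SE 0.10, adjusted p = 0.000336, limma). Of its exon bases 62.2% are shared with AC087721.2.

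Other G2/M genes were higher in wells numbered 1 of all 5 groups: KIF20B by 0.31, CKS2, a subunit of cyclin-dependent kinases, by 0.30, MKI67 by 0.28, HMMR by 0.24, BUB1B by 0.20 and TOP2A, the topoisomerase of mitotic chromosomes, by 0.18 (adjusted p at most 0.0215, limma). PLK1 was lower in wells numbered 1 of all 5 groups (−0.28, adjusted p = 0.000409), as was CDC20, an activator of the anaphase-promoting complex (−0.23, adjusted p = 0.00114). Among the S genes, CDT1 was lower in well 1 of every group: wells numbered 1 were at 48.4, 48.0, 48.3, 53.7 and 43.1 FPKM and the others between 53.5 and 71.6 FPKM (−0.42, adjusted p = 0.000487). CCNE2 was higher by 0.31 (adjusted p = 0.00265), and MCM2 (−0.14) and MCM5 (−0.18) were lower. CCND3 was lower in wells numbered 1 (−0.24, adjusted p = 0.00127) and CCND2 higher (0.15, adjusted p = 0.0112). PLK1 and KIF20B, both genes of mitosis, thus differed in opposite directions.

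The direction went along with the base composition of the transcripts, though not in each member. The 11 G2/M genes that were higher had a median GC content of 41.4%, and the 2 that were lower had one of 57.6%. Among the S genes the 2 that were higher stood at 41.2% and the 5 lower ones at 58.1%. The members overlapped: PCNA was lower at 45.3% GC, while CDC6 (45.5%), MKI67 (48.3%) and BIRC5 (52.2%) were higher. The call of PCNA was lost in 11 of 23 other settings, that of CDC6 in 4 and that of MKI67 in 2. E2F1, among the 5 lower S genes, lost its call in 12 of 23. Over 16166 tested genes with a known GC content, the difference between wells numbered 1 and the others had a Spearman's rho of −0.399 with GC content, a description across genes. Its median was 0.09 for genes under 40% GC and −0.20 for genes of 60% or more. When the curve over GC content was taken off each library, an alternative chosen after seeing the data, 6 G2/M genes were higher and 4 lower, with 1 S gene higher and 4 lower, where 10.4% of all genes were higher and 12.1% lower. NUSAP1 (0.70), KIF20B (0.17), CKS2 (0.22), MKI67 (0.25), PLK1 (−0.20), CDC20 (−0.15), CDT1 (−0.19), BUB1B, BIRC5, PCNA and CCND3 still passed. HMMR (0.12), TOP2A (0.08), CENPE, KIF11 and TPX2 no longer passed, nor did the S genes CCNE2 (0.19), MCM2 (−0.05), MCM5 (−0.11), CDC6 and E2F1, nor CCND2 (0.10). The S genes MCM4, MCM6 and MCM7 and the G2/M genes CCNA2 and BUB1 passed only after the curve was taken off. The share of fragments on mitochondrial genes was also higher in well 1 than in wells 2 and 3 of Non-target (2.63% against 1.57% and 1.61%), C9orf89-CKO (3.10% against 1.88% and 1.87%) and MAGI2-CKO (3.28% against 2.44% and 2.64%). It was not in MLPH-CKO (2.54% against 3.91% and 2.89%) or RHBDD2-CKO (1.65% against 1.73% and 1.71%). The part of the mitochondrial share in these differences was not tested.

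**Figure D3:**
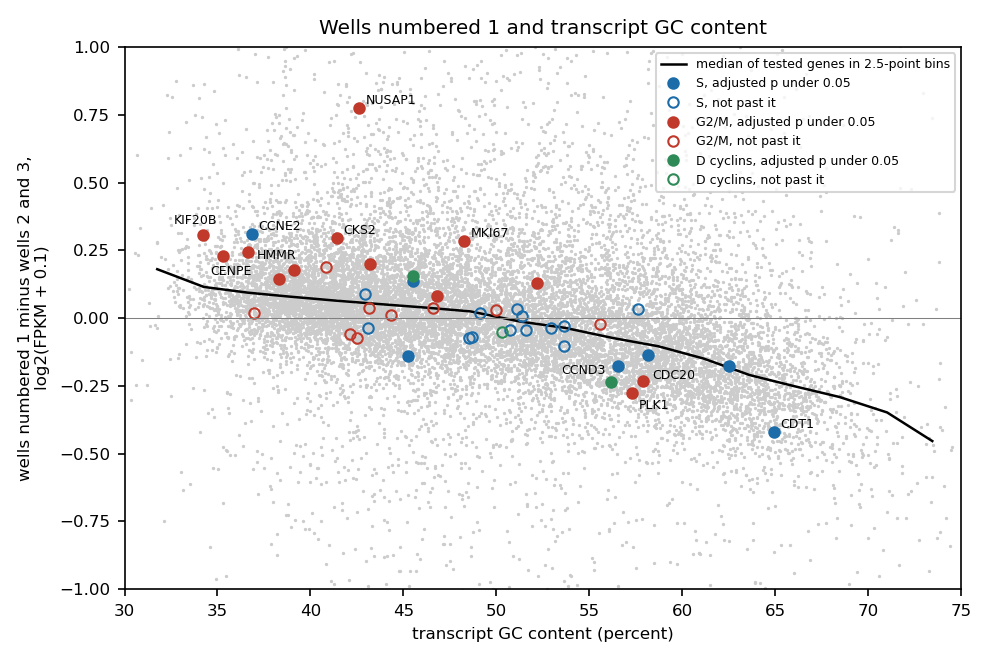
Difference of wells numbered 1 from wells 2 and 3 (vertical axis, log2(FPKM + 0.1)) and GC content of the transcript (horizontal axis, percent) for tested genes (grey) and members (coloured, filled where the adjusted p was under 0.05); the line is the median of tested genes in bins, and 466 genes lie beyond the axes. Members with low GC content, such as KIF20B, lie above 0 and CDT1, PLK1 and CDC20, with high GC content, below it.

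Wells numbered 2 and 3 did not differ in this way. In limma 0 of the tested genes (0%) passed between them, with 483 at an unadjusted p under 0.05 and a smallest adjusted p of 0.898, and limma's voom fit on the recovered fragments also called 0. The differences of the members lay between −0.03 and 0.09 for the S genes and between −0.04 and 0.15 for the G2/M genes.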

How the data were processed

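RNA of 15 HEK293T libraries was analysed, 3 wells in each of 5 groups, with groups and well numbers from the labels. The submitters' processing notes name HISAT2 2.0.5, featureCounts 1.5.0-p3 and DESeq2, and the genome build and strand setting are not given in the sources used here. The authors deposited 1 value per gene and library, read here as FPKM: each value times the merged exon length of GENCODE v29 was a whole number of fragments of its library (100% of values, tolerance 0.02). These fragments gave the depth and served in 1 alternative fit.

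log2(FPKM + 0.1) was fitted with limma 3.58.1 (R 4.3.3), eBayes with a trend and all 15 libraries in 1 model. Benjamini-Hochberg adjustment ran over all tested genes of a comparison. Wells numbered 1 were contrasted with wells 2 and 3 in a model with group and number. A low gene's fold change is understated by the pseudocount. Neighbours are the 100 nearest tested genes on the same chromosome, and 16127 genes had them. Python 3.11.15 did the rest. On simulated data with 16175 genes and 200 changed, the clone fit recovered 80 of 100 genes changed 2-fold and 86 of 100 changed 3-fold, with 10 false calls. The simulated counts had the same dispersion for every gene, changed genes in RHBDD2-CKO only and no difference between well numbers. They therefore do not give the rate of false or missed calls in these data.

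The members and the lists were chosen with earlier results of these data known. Named genes were a set list of cyclins, helicase subunits, origin factors and mitotic kinases, the 2 S and the 2 G2/M genes with the largest rise and fall in each comparison, and the gene with the largest rise and fall of each further list in each clone. Others, such as CDK1, BUB1B and BIRC5, were named after their values were seen. Some genes picked by this rule are left undescribed.

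The alternatives were pseudocounts of 1 and 0.01, no filter (32715 genes), quantile normalization, a mean of 1 FPKM or more (12533 genes), no trend, the replicate number as a block, only the 2 groups compared, voom on fragments, no libraries numbered 1, and each library left out. Taking off the neighbours or the GC curve (lowess span 0.3) was added after seeing the data.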

Additional observations from a re-analysis of the deposited data

How the results depend on the processing

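Of 78 changes of named genes that passed the threshold, 34 kept their direction and their side of it in every alternative run. Over 2046 repeats of these changes, 162 kept the direction but missed the threshold and 5 reversed, all 5 with neighbouring genes taken off: KIF23 in MAGI2-CKO (−0.0045) and MLPH-CKO (−0.0029), CCNB2 in MLPH-CKO (−0.0468), and CDC45 (−0.0309) and RPA2 (−0.0502) in RHBDD2-CKO. In that fit CCND1 and CCND2 still fell in RHBDD2-CKO, and 16127 genes were tested. Counts of members past the threshold moved by over 1.5 times as follows, and the causes were not tested. With neighbours taken off, S genes went from 7 to 2 in MAGI2-CKO and from 9 to 4 in MLPH-CKO, and G2/M genes from 9 to 5 and from 8 to 3. Without the libraries numbered 1, G2/M genes went from 4 to 7 in C9orf89-CKO, 8 to 13 in MLPH-CKO and 7 to 11 in RHBDD2-CKO, and S genes from 5 to 10 in RHBDD2-CKO. In C9orf89-CKO the 5 S genes were 3 with no filter, 1 after quantile normalization and 3 without the trend. They were 2 with only the groups compared and 8 with the GC curve taken off. Over all genes 4210 passed there in the main fit, and 4030, 4129, 4134, 3294 and 4921 in these settings in that order. With only the groups compared, the 9 S genes of MLPH-CKO were 5 and the 7 G2/M genes of RHBDD2-CKO were 4. The latter were also 4 with no filter. Over all genes the calls went from 4865 to 3578 in MLPH-CKO and from 5511 to 4163 in RHBDD2-CKO, and to 5359 there with no filter. With 1 library left out in turn, S genes ranged from 4 to 9 in MLPH-CKO, 4 to 8 in MAGI2-CKO, 2 to 7 in C9orf89-CKO and 4 to 7 between well numbers. The G2/M genes ranged from 4 to 7 in RHBDD2-CKO and 2 to 5 in C9orf89-CKO. Calls over all genes then ranged from 3875 to 5023 in MLPH-CKO, 4750 to 5965 in MAGI2-CKO and 3288 to 4365 in C9orf89-CKO. They ranged from 4271 to 5640 in RHBDD2-CKO and 3494 to 4584 between well numbers.

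With the replicate number as a replicate block, 13 G2/M genes passed in MLPH-CKO against 8, and 8 S genes (4 higher and 4 lower) in RHBDD2-CKO against 5, and no named change was lost. Over all genes, 18.0% were then higher and 20.9% lower in MLPH-CKO, and 21.0% and 22.5% in RHBDD2-CKO. In this fit PLK1 passed in MLPH-CKO (−0.20), CDC20 in MAGI2-CKO (−0.26), CKS2 (−0.23) and TOP2A (−0.22) in RHBDD2-CKO, E2F1 in C9orf89-CKO (−0.29), CCNE2 in MAGI2-CKO (−0.40) and MLPH-CKO (−0.35), KIF20B in MLPH-CKO (−0.35), CDC6 in C9orf89-CKO (−0.23) and MCM2 in MAGI2-CKO (−0.16), all lower. HMMR (0.32) and CENPF (0.30) passed as higher in C9orf89-CKO, AURKB (0.14) in MLPH-CKO, and MCM5 (0.22) and MCM3 (0.14) in RHBDD2-CKO. These are examples, and other members also passed. After group means were taken out, pairs of wells numbered 1 correlated (median 0.212, over 0.1 in 10 of 10 pairs). Wells numbered 2 (0.0383, 1 of 10) and numbered 3 (0.0795, 1 of 10) did so less. Pairs of different numbers had a median of −0.0887, which pools 2 kinds of pairs. Those of a well numbered 1 with a well 2 or 3 ran from −0.210 to −0.0251. Those of a well 2 with a well 3 were all positive (0.00567 to 0.127), as were pairs both numbered 2 (0.00103 to 0.110). Wells numbered 1 thus shared differences across groups. The main fit left the number out, and the block fit takes it in. The wells share 1 clone per group, so no alternative here bears on differences between clones of the same gene.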
